A study of Mus musculus with 2 samples.

Results

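The genes described here are those of glucuronidation, the conjugation of drugs, steroids, bilirubin and bile acids to glucuronic acid, in cultured mouse liver cells. The set names 10 genes, 8 UDP-glucuronosyltransferase (UGT) genes and 2 genes of the sugar donor's synthesis, and was taken by gene symbol. Of the 10 genes, 8 were found among the 15644 named genes of the array table (6 UGT genes, Ugdh and Ugp2), and Ugt1a1 and Ugt2b35 were not analysed here. Primary hepatocytes, parenchymal cells taken from the liver and kept in culture, came from a C57BL/6 male aged 9 weeks. After 24 h in culture they received 10 µmol/l pregnenolone 16α-carbonitrile (PCN) or its solvent dimethyl sulfoxide (DMSO), and RNA was collected 12 h later. Each of the 2 groups gave 1 Affymetrix array, hybridised with labelled RNA of 3 pooled samples. PCN, a man-made steroid, is an agonist of the rodent pregnane X receptor (PXR), a nuclear receptor of drug metabolism, and the comparison asks how gene expression differs with it. With 1 array per group there is no replicate error and no test, so "higher" and "lower" below describe these 2 arrays and not the treatment in general.

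Glucuronidation takes place in the endoplasmic reticulum. Ugp2 encodes the pyrophosphorylase that makes UDP-glucose from glucose 1-phosphate and UTP, and Ugdh encodes the dehydrogenase that oxidises UDP-glucose to UDP-glucuronate. UGT enzymes then move the glucuronate to a lipid-soluble acceptor, and the product leaves the hepatocyte through efflux pumps into bile or blood. The UGT1A enzymes share their common exons and include Ugt1a1, the enzyme of bilirubin conjugation and a known PXR target. The UGT2B enzymes are separate genes with overlapping substrates, among them steroid hormones, bile acids and drugs.

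The values are GCRMA intensities, the authors' background-corrected and normalized signals per gene. An intensity of 32, or 5 on the log2 scale, was set as the floor below which a gene counted as not measured. Of the named genes, 6449 reached it in at least 1 array. Levels are not compared between genes, because each gene has its own probes and the signal of a probe depends on its sequence. The array-to-array spread was taken from 38 bacterial and phage control probe sets added from outside. Their log2 differences, PCN minus DMSO, averaged -0.03 with an SD of 0.10, the lowest being -0.33 and the highest 0.16. This spread does not hold any difference between cultures. Of the 8 known PXR target genes listed, 6 reached the floor in each array. Cyp3a11, a CYP3A enzyme that oxidises many drugs, went from 8519 with DMSO to 15919 with PCN, and its relative Cyp3a25 from 145 to 1134. Gstm3, a glutathione S-transferase, went from 641 to 1580, Ces2a, a carboxylesterase, from 591 to 978, and Cyp2c29, another cytochrome P450, from 650 to 1059. Alas1 had the smallest difference of the 6, from 884 to 1088, a log2 difference of 0.30. Cyp2b10 and Abcb1a were under the floor with DMSO and above it with PCN, so they could count only as higher. These genes were listed with their values known, and their direction is a description of the arrays that checks nothing.

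Genes of the glucuronidation set were mostly lower in the PCN array, by small amounts. Of the 8 genes, 6 were lower and 2 higher, and the largest difference was 1.23-fold. Over all measured genes, 42.4% were lower with PCN by any amount and 57.6% higher. The median log2 difference of the 8 genes was -0.16, against 0.03 over all measured genes. None of the 8 reached a log2 difference of 0.32 in either direction, a size that 6.17% of all measured genes passed as lower and 5.27% as higher. Among those calls 46.1% were higher, a share that became 34.5% with differences centred on the median and 35.3% with a level-dependent trend removed. At 1.1-fold, 5 of the 8 were lower (18.8% of all measured genes) and 1 was higher (25.6%). In RNA from whole cultures, fewer hepatocytes and less of a transcript per hepatocyte cannot be told apart.

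**Figure D1:**
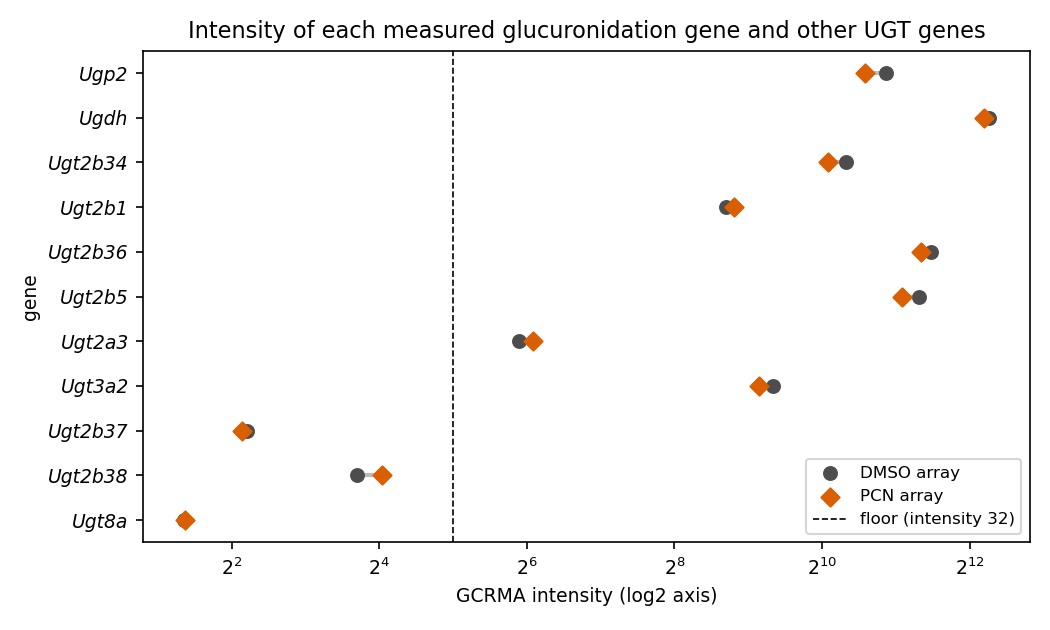
Intensity of 8 genes of the glucuronidation set and 3 other UGT genes in the DMSO array (grey circles) and the PCN array (orange diamonds). The axis is log2 and the floor of 32 is dashed. The 8 genes lie above the floor in both arrays, and Ugt2b37, Ugt2b38 and Ugt8a lie below it; each point is 1 array, so there are no error bars.

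Both genes of UDP-glucuronate synthesis were lower with PCN, the first enzyme more than the second. Ugp2 had an intensity of 1872 with DMSO and 1524 with PCN. Its log2 difference of -0.30 was the lowest of the set and ranked 473 from the lowest among the 6449 measured genes. Ugp2, Ugt2b34 and Ugt2b5 were the 3 genes of the set that lay more than 2 spike-in SDs below 0. However, 1 spike-in probe set lay lower than any of them. Ugt2b5, the least low of the 3, ranked 707 from the lowest, so at least 11.0% of all measured genes also lay past that cutoff. Ugp2 was also the only one of the 8 to pass 0.32 under another scaling, at -0.33 with median centring and -0.33 with the level-dependent trend removed. Ugdh, which commits UDP-glucose to the glucuronate branch, had 4926 with DMSO and 4659 with PCN. Its log2 difference of -0.08 was within 1 spike-in SD of 0.

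The UGT2 genes did not share 1 direction. They form a cluster of 10 genes on chromosome 5, with no other protein-coding gene of the RefSeq table (GRCm38.p6) inside its span. In order along the chromosome the cluster holds Ugt2b34, Ugt2b1, Ugt2b35, Ugt2b36, Ugt2b5, Ugt2b37, Ugt2a3, Ugt2b38, Ugt2a1 and Ugt2a2. The start regions of the 6 listed cluster members are shown because these genes lie in 1 cluster and those with values differed in direction, with Ugt2b35 shown for its sequence alone. Each is the stretch of 100 bases before the annotated RefSeq start, 5′ to 3′ on the gene's own strand. The Ugt2b34 stretch is chr5:86906938-86907037 on the minus strand. The Ugt2b1 stretch is chr5:86926504-86926603 on the minus strand. The Ugt2b35 stretch is chr5:87000760-87000859 on the plus strand. The Ugt2b36 stretch is chr5:87092556-87092655 on the minus strand. The Ugt2b5 stretch is chr5:87140341-87140440 on the minus strand. The Ugt2a3 stretch is chr5:87337196-87337295 on the minus strand. Capitals mark matches to GTTANNNNNTAAC, the outer letters of the palindromic site of HNF1, a transcription factor of liver that is known to act on UGT2B genes. The pattern was chosen after these sequences were read.
Ugt2b34: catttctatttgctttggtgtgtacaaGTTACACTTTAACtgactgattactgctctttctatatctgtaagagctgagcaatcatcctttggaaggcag
Ugt2b1: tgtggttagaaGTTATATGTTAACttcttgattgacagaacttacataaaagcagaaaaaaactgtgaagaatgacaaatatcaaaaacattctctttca
Ugt2b35: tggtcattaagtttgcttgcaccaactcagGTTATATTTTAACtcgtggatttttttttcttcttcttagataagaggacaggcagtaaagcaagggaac
Ugt2b36: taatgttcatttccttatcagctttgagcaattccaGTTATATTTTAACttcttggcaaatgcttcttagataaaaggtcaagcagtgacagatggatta
Ugt2b5: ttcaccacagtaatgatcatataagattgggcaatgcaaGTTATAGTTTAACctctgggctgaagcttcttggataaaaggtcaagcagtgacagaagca
Ugt2a3: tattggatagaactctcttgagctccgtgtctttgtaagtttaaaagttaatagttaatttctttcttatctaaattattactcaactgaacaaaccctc

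The pattern lay in all 7 Ugt2b windows of the RefSeq promoter table, those of Ugt2b37 and Ugt2b38 included, and in none of the Ugt2a windows. Windows run from 250 bases before to 50 after the start, and both strands were searched. Of 32851 windows of that length, 109 (0.332%) held it, the Ugt2b windows included. The median share of G and C bases was 52.7% over all windows. In the windows of the 6 genes shown it ran from 31.7% (Ugt2a3) to 43.3% (Ugt2b34). The share among windows equally rich in A and T was not computed. The match began 61 bases before the start in Ugt2b5, 64 in Ugt2b36, 70 in Ugt2b35, 73 in Ugt2b34 and 89 in Ugt2b1. Ugt2a3 has the longer half-site GTTAAT instead, at 54 and again at 47 bases before its start, a run of letters that 7.1% of all windows hold. The stretches of Ugt2b36 and Ugt2b5 were the most alike, with 75 of 90 aligned bases identical (83.3%). In both, the half-site AGGTCA of nuclear receptors followed, beginning 25 bases before the start in Ugt2b36 and 22 in Ugt2b5. That half-site was in 16.3% of all windows, and it did not overlap the pattern in either gene. Ugt2b35 held it too, beginning 215 bases before the start. The half-site AGTTCA was in 14% of windows, those of Ugt1a1 and Ugt2b1 among them. It began 162 bases before the start in Ugt1a1 and 42 bases after the start in Ugt2b1. Its direct repeat AGTTCANNNAGTTCA, a form to which PXR binds, was in no window of the table. With 4 bases between, the repeat was in 4 windows, none of them of the set. Only exact letters were searched, so these absences tell nothing of PXR sites at these genes. A match is a description of letters and not of binding. Genes lower with PCN held the pattern, and so did Ugt2b1, which was higher. Any part of the pattern in the differences was not tested.

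Ugt2b5 and Ugt2b36, neighbours in the cluster, were both lower with PCN. Ugt2b5 had 2545 with DMSO and 2168 with PCN, a log2 difference of -0.23 or 1.17-fold. Ugt2b36 had 2852 and 2582, a log2 difference of -0.14. Both encode UGT2B enzymes, and their related sequences leave uncertain how far the probes of one gene also read the other. Ugt2b34, at the end of the cluster, had 1286 with DMSO and 1084 with PCN, a log2 difference of -0.25 or 1.19-fold. It was the lowest of the UGT genes and ranked 631 from the lowest of the measured genes.

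Ugt2b1 and Ugt2a3 were the 2 genes that were higher with PCN. Ugt2b1, which lies next to Ugt2b34, had 414 with DMSO and 447 with PCN, a log2 difference of 0.11 or 1.08-fold. That is close to 1 spike-in SD. Ugt2a3, a UGT2A enzyme, had 59.2 with DMSO and 68.0 with PCN, a log2 difference of 0.20 or 1.15-fold. It was within 1 log2 unit of the floor in the DMSO array, and with a floor of 6 its difference was 0.09. Between Ugt2b34 and Ugt2a3, the extremes of the cluster, the log2 differences lay 0.45 apart. No error can be given for that gap.

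Ugt3a2 lies outside the cluster, on chromosome 15. UGT3 enzymes are related to the other UGTs but use sugar donors other than UDP-glucuronate. Ugt3a2 is kept in the counts because the set was taken by gene symbol. Ugt3a2 had 645 with DMSO and 567 with PCN, a log2 difference of -0.18 or 1.14-fold, in the range of the lower UGT2B genes (-0.25 to -0.14).

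Of 14 further UGT genes, 3 were found, and all 3 were under the floor in both arrays. Ugt2b37 had 4.61 with DMSO and 4.41 with PCN, and Ugt2b38 was at 13.0 and 16.4. Ugt8a, which makes galactosylceramide and not glucuronides, had 2.55 and 2.58. These values lie where signal and background are not separated, so no difference is given for them. The other 11, all further Ugt1a genes among them, were not analysed here, so no UGT1A enzyme is described.

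**Figure D2:**
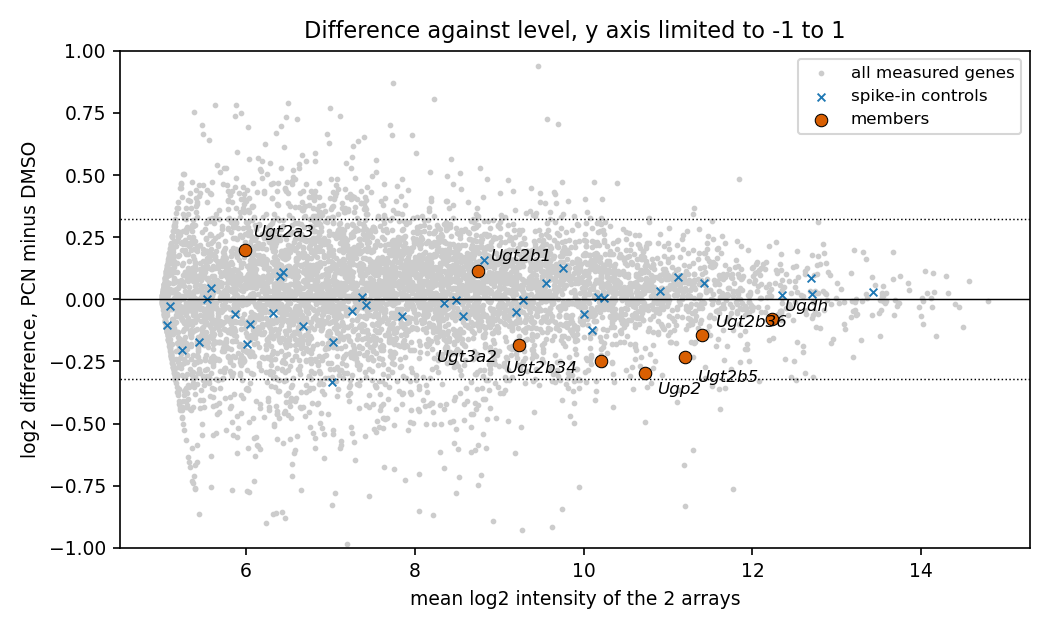
Log2 difference (PCN minus DMSO) against the mean log2 intensity of the 2 arrays. Shown are all measured genes (grey), the 38 spike-in controls (blue crosses) and the 8 genes of the glucuronidation set (orange, labelled). A difference of 0.32 in either direction is dotted. All 8 lie inside the dotted lines, 6 below 0 and Ugt2b1 and Ugt2a3 above it; genes beyond -1 or 1 are outside the plotted range.

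The steps before and beside Ugp2 supply glucose 1-phosphate and UTP. Of 24 listed genes of UDP-glucose and UTP supply, 14 were measured, 11 higher and 3 lower with PCN, where 57.6% of all measured genes were higher. Their median log2 difference was 0.07, against 0.03 over all measured genes. At 0.32 or more in size, 2 were higher (5.27% of all measured genes) and 0 lower (6.17%). The 2 were Hk1, a hexokinase, from 41.4 to 55.5, and Uck2, which phosphorylates uridine on the way to UTP, from 253 to 327. The lowest difference was that of Dhodh, an enzyme of pyrimidine synthesis, at -0.30, from 47.9 to 39.0. Glycogen synthase of liver, Gys2, which draws on the same UDP-glucose, did not reach the floor in either array.

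Other genes use UDP-glucuronate for other ends, or break glucuronides and glucuronate down. Of 22 listed, 15 were measured, 9 higher and 6 lower, a split near that of all measured genes (57.6% higher), and their median of 0.03 was also that of all measured genes. Chsy1, which adds glucuronate to chondroitin chains, was higher, from 48.4 to 64.9. Rgn and Gulo, which act in turn on the path from glucuronate to ascorbate in mouse liver, differed in opposite directions. Rgn, the gluconolactonase, went from 345 to 452, a log2 difference of 0.39. Gulo, the gulonolactone oxidase, went from 138 to 101, a log2 difference of -0.46. These 3 were the members of the list past 0.32 in size, 2 higher and 1 lower, where 5.27% and 6.17% of all measured genes lay. Gusb, the glucuronidase that splits glucuronides, had 452 with DMSO and 462 with PCN.

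Bilirubin is formed by heme oxygenase and biliverdin reductase, conjugated by UGT1A1 and pumped into bile by the efflux pump that Abcc2 encodes. Of 9 listed genes of this route, 6 were measured, 5 higher and 1 lower, where 57.6% of all measured genes were higher, and the median of 0.03 was that of all measured genes. Abcc2 was the only one past 0.32, from 897 with DMSO to 1187 with PCN, a log2 difference of 0.40 that ranked 178 from the highest. Abcc3, which carries glucuronides to the blood side, was the lower one, from 1219 to 1162. The heme oxygenase gene Hmox1 had 1911 and 1917. Of the UGT genes measured, 4 of 6 were lower with PCN, where 42.4% of all measured genes were lower. Ugt1a1, the conjugating enzyme of this route, was not analysed here, so export and conjugation of bilirubin cannot be set side by side.

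**Figure D3:**
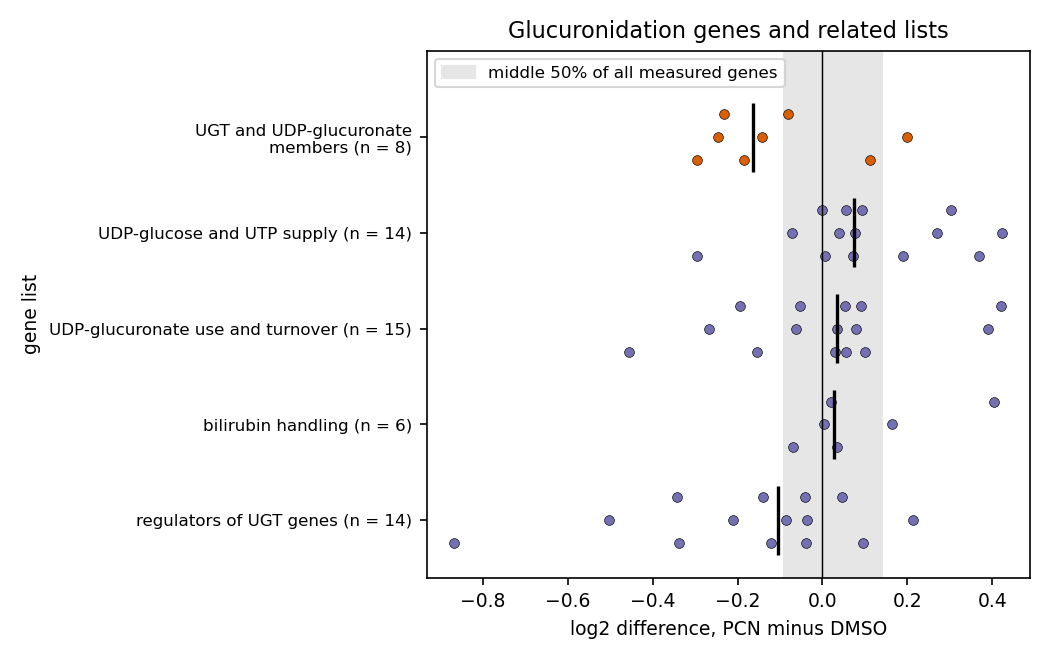
Log2 difference (PCN minus DMSO) of each measured gene in the glucuronidation set and 4 related lists; points are genes, black bars are list medians, and the grey band is the middle 50% of all measured genes. The medians are -0.16 for the glucuronidation set, 0.07, 0.03 and 0.03 for the supply, use and bilirubin lists, and -0.10 for the regulators.

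Several receptors and transcription factors are known to act on UGT genes. Of 18 listed, 14 were measured, 3 higher and 11 lower, where 42.4% of all measured genes were lower. Their median was -0.10, against 0.03 over all measured genes. At 0.32 or more on the log2 scale, 4 were lower (6.17% of all measured genes) and 0 higher (5.27%). Cebpa, a factor of differentiated hepatocytes, went from 400.5 to 219, a log2 difference of -0.87. Ppara, the gene of the fatty acid receptor PPARα, went from 377 to 266, Nr1h4, which encodes the bile acid sensor FXR, from 169 to 133, and Foxa3 from 178 to 141. Nr1i2, the gene of PXR itself, had 71.9 and 70.1. The largest difference upward was that of Nr1h3, the gene of the oxysterol receptor LXRα, at 0.21. Their part in the UGT differences was not tested.

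Hepatocyte markers were present in both arrays, with Alb, the albumin gene, at 21685 and 21383. Of 10 listed hepatocyte markers, 8 were measured, 2 higher and 6 lower (42.4% of all measured genes), with a median of -0.02 and a summed intensity of 75409 with DMSO and 74875 with PCN. Each sum given for a marker list takes in every marker found, those under the floor included. Asgr1, a receptor of the hepatocyte surface, was lower, from 551 to 406, Serpina1a, a secreted protease inhibitor, had the largest difference upward at 0.07, and the amino acid enzyme gene Tat was under the floor in both arrays. Of the 9 Kupffer and leukocyte markers found, 1 was measured, with sums of 1759 and 1702, and of the 10 stellate and fibroblast markers 2, with sums of 454 and 408. They were Cd68, a lysosomal protein of macrophages, from 1690 to 1626, Dcn, a matrix proteoglycan, from 351 to 313, and Acta2, the smooth muscle actin, from 36.5 to under the floor. Of the 9 endothelial markers, 3 were measured, with sums of 167 and 186. Stab2, a scavenger receptor, was the only lower one, from 42.1 to 37.0. Lyve1, a hyaluronan receptor, had the largest difference upward, from under the floor to 39.8, and Eng went from under the floor to 37.1. Of the 6 bile duct markers found, 2 were measured, with sums of 314 and 337. The latter were Krt19, a keratin, from 169 to 223, and Sox9, a transcription factor, from 127 to 95.2. Clec4f of Kupffer cells, Lrat of stellate cells, Cdh5 of endothelium and Epcam of bile ducts were under the floor in both arrays. They were picked from the lists after their values were seen. Other markers of each list reached the floor, so absence of these cell types is not shown. No deposited intensity was at 0, since the lowest was 1.13.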

How the data were processed

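Biotin-labelled cRNA, which the labels' protocols trace to 5 µg of RNA from 3 samples put together, was read on 1 Affymetrix array per group. The deposited values are intensities that the authors computed with GCRMA, version 2.2.0 per the submitters' processing notes. They are on a linear scale, from 1.13 to 28482. GCRMA normalizes arrays to each other, which hides any difference in RNA content between cells. The sources used here name neither the probe set definition nor the build.

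Log2 differences were taken with pandas 2.3.3 and numpy 2.4.6 under Python 3.11.15. Each symbol had 1 row. Genes under the floor of 5 in both arrays were left out, and a value under it in 1 array was raised to it. Without replicates no test was run, and precision is limited by how few arrays there are. Calculations were tested on simulated data with planted differences larger than those of any member. That test bears on the arithmetic and not on how well differences of the reported size can be read. The members, lists and thresholds were chosen with earlier results of these data known. The rule for named genes took all members and, of each list, the largest difference each way and any gene past 0.32 on the log2 scale with both values above the floor; others were chosen after their values were seen. Start regions come from RefSeq (GRCm38.p6), and 9 of 10 members matched; alignments used Biopython 1.88. Protein sequences, planned for a comparison of the members, were not used here.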

Additional observations from a re-analysis of the deposited data

How the results depend on the processing

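Every alternative was planned: floors of 4 and 6, no floor, low values as deposited, quantile normalization, median centring, removal of a loess trend, and log2(intensity + 16). Under all 8, 6 members were lower, the median of the members ran from -0.20 to -0.16, and no member changed sign. The floor of 4, no floor and low values as deposited could not change any member, since all lay above the floor in both arrays. A floor of 6 could change only Ugt2a3. Log2(intensity + 16) keeps the sign of every difference. Median centring moved every difference by the same -0.03, less in size than the difference of any member. None of these settings is therefore a check on the members' direction. Members lower by 0.32 or more numbered 1 after median centring and 1 after loess removal, in place of 0, since both moved Ugp2 past the threshold. At 1.1-fold, 5 members were lower and 1 higher, in place of 0 and 0. Over all measured genes, 398 were lower and 340 higher by 0.32 or more on the log2 scale. These became 968 and 783 with no floor, which adds dim genes, 84 and 41 at 1.5-fold, and 1214 and 1649 at 1.1-fold. Ugt2a3 moved from 0.20 to 0.09 with a floor of 6, which raised its DMSO value to that floor. Leaving out a replicate was not feasible with single arrays. No paired analysis was possible because neither treatment has a second array. Low signal limits Ugt2a3, Ugt2b37 and Ugt2b38.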
